A study of Arabidopsis thaliana with 8 samples.

Results

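The mRNAs described here encode the proteins of the large (60S) subunit of the cytosolic ribosome in Arabidopsis thaliana. The members were 60 nuclear loci of 30 protein families, listed by locus with the acidic stalk P-proteins left out, and a locus counted as measured when the array annotation gave it a probe set that belongs to 1 gene. That held for 39 loci of 22 families, out of 13286 genes measured in this way in the whole series. Each of the 39 had a single probe set, and all 39 lay in the upper 50% of probe sets by mean signal, the 11373 that were tested. Of the other 21 loci, 3 were matched only by probe sets that the annotation assigns to several genes, and 18 had no probe set named in the annotation used here. The families L3, L5, L8, L10, L11, L23a, L24 and L27a therefore have no value, among them STV1 (AT3G53020, L24), SAC52 (AT1G14320, L10) and both genes of L5, AT3G25520 and AT5G39740. L5 and L11, which carry the 5S rRNA into the subunit, and L24, which forms a bridge to the small subunit, thus leave these sites without a measured member.

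The large subunit joins amino acids in its peptidyl transferase centre and releases the growing chain through an exit tunnel, while flexible stalks at its side recruit elongation factors. In Arabidopsis nearly every protein of this subunit is encoded by a small family of paralogs, whose mRNAs are among the most abundant in growing tissue. In animals these mRNAs share a terminal oligopyrimidine tract at the 5′ end through which growth signals set their polysome loading, and in plants their loading is known to shift with light and sugar supply.

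The study asked which mRNAs depend on eIF3h, a subunit of initiation factor eIF3, for their loading with ribosomes. Wild type (WT) was compared with the eif3h mutant, the eif3h-1 allele, in which a T-DNA insertion leads to an eIF3h protein truncated at its carboxyl terminus. The study describes the level of this protein as low, and proposes that low expression and truncation may both contribute to the defects. Aerial parts of seedlings grown for 10 days under continuous light on medium with sucrose were extracted, and RNA was pooled from the polysomal (PL) fractions of a sucrose gradient, where mRNAs carry multiple ribosomes, and from the non-polysomal (NP) fractions, which hold free mRNAs and monosomes. For each genotype 2 gradients were run from extracts of different days, and each of them gave 1 PL and 1 NP array, so that 8 arrays fell into 4 groups of 2: WT PL, WT NP, eif3h PL and eif3h NP. The plants of both genotypes were grown and harvested alike, a single mutant allele was used, and the shoots of many seedlings were pooled in each extract.

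The arrays are Affymetrix ATH1 GeneChips, and the values are signal intensities scaled by the authors to the same trimmed mean, so that a difference is always relative to the average mRNA of that fraction. Translation state stands for the log2 ratio of PL to NP signal within a gradient, and a positive change of it means that the mRNA was more polysomal in eif3h than in WT. Array medians ranged from 185.75 to 277.0, whereas the median over the 39 members lay between 3839 and 8016, and 33 of the 39 belonged to the 10% of tested probe sets with the highest signal (1138 probe sets). Of 6 leaf markers, 2 were measured, and both were bright: RCA (Rubisco activase) had signals of 14761 to 36163, and LHCB4.2 (a light-harvesting protein) 2611 to 24003. LHCB4.2 was lower in eif3h in both fractions (log2 difference -1.63 in PL and -2.74 in NP, limma adjusted p = 0.00161 and 0.000146). RCA passed the test in neither fraction (log2 difference -0.09 in PL and -0.8 in NP, limma adjusted p = 0.859 and 0.0796). The summed signal of both leaf markers was 38871 to 57990 on the WT arrays and 17373 to 39764 on the eif3h arrays. The only measured root marker of 5, PYK10, gave 1813 to 9268 in these aerial parts, with log2 differences of 0.05 and 0.20. None of the 4 markers of dividing cells was measured. The mutated gene itself, AT1G10840, is not among the genes with a single-gene probe set in this annotation, so the genotype labels were not checked on it.

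The first comparison asked how the loading of these mRNAs differed between the eif3h mutant and WT. The translation state was higher in eif3h than in WT for 38 of the 39 mRNAs, while 40.8% of all tested probe sets had a value above 0. The median change was 0.64 on the log2 scale (quartiles 0.51 and 1.06), against -0.12 over all tested probe sets. Within the replicates the median was 0.58 and 0.87, against -0.11 and -0.13 over all. The value was positive in both replicates for 35 members (25.9% of all tested probe sets), negative in both for 1 (41.4%) and of differing sign for 3. In 31 members the translation state of both eif3h gradients lay above that of both WT gradients (19.8% of all). Whether a genotype has fewer cells of a type that holds these mRNAs or less of the mRNA per cell cannot be told apart in such bulk extracts. Of the 2 measured leaf markers LHCB4.2 was lower in eif3h in both fractions and RCA passed the test in neither, as given above. The part of such a shift in these values was not tested.

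Bright probe sets as a class also leaned to the positive side. Over the 1138 brightest probe sets the median change was 0.30, and 73.2% were above 0. Of the 33 members among them, 32 were above 0, with a median of 0.64. In 27 of these 33 both eif3h gradients were above both WT gradients, against 49.2% of these bright probe sets. After quantile normalization of the arrays, the medians were 0.40 for the 39 members, 0.00 for all tested probe sets, 0.02 for the brightest 10% and 0.35 for the members in it. In that scaling 36 members were above 0 (50.2% of all).

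With the replicate number as a block, 1 member rose past the test, against 0.0176% of all tested probe sets in that direction, and none fell (0.0352%). In a fit that takes each gradient as a block, so that PL and NP of the same extract are compared directly, 8 members rose (1.02% of all, and 4.57% of the brightest 10%). With the replicate block, the calls depended on the gradients used. The members' median above that of all probe sets was 0.76 with all gradients. It was 0.83 and 0.77 without WT replicate 1 and 2, and 0.93 and 0.66 without eif3h replicate 1 and 2. At an unadjusted p under 0.05, 20 members were on the positive side (6.02% of all) and none was on the negative side (8.46%). The mean change exceeded 2-fold in 11 members (2.68% of all, and 87 of the brightest 1138). It exceeded 2-fold in both replicates in 6, against 1.07% of all and 3.6% of the brightest 10%. These 6 encode L18a, L13, L19, L7, L26 and L22.

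L18a is a protein of the subunit body, and its gene AT3G14600 was the member past the test. Its PL signal was 4293 and 3175 in WT and 5554 and 4886 in eif3h, whereas its NP signal was 17155 and 12021 in WT and 5176 and 3491 in eif3h. The NP signals of the genotypes were far apart and did not overlap, while the PL signals differed less. Its translation state of -2.00 and -1.92 in WT compared with 0.10 and 0.48 in eif3h, a rise of 2.25 (SE 0.27, 4.77-fold, adjusted p = 0.0464). The adjusted p was 0.00305 with the gradient as a block. It was 0.0772 after quantile normalization, where the value was 1.81, and 0.0814 and 0.135 without WT replicate 1 and 2.

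**Figure D1:**
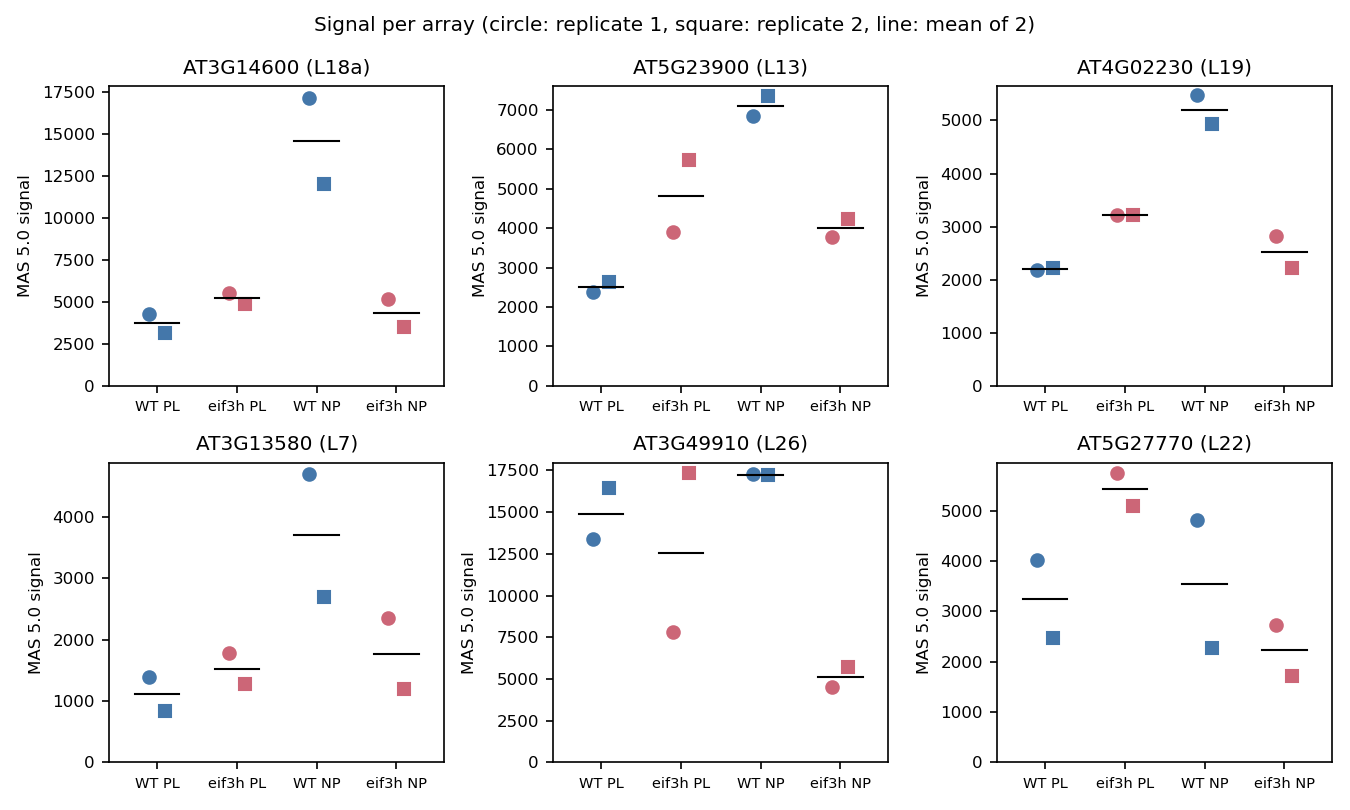
MAS 5.0 signal (linear scale from 0) of the 6 mRNAs whose translation state was over 2-fold higher in eif3h in both replicates, in WT (blue) and eif3h (red), polysomal (PL) and non-polysomal (NP) RNA. Circles are replicate 1, squares replicate 2 and lines the mean of 2; for AT3G14600 the NP signals were 17155 and 12021 in WT against 5176 and 3491 in eif3h.

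L13, another protein of the body, is represented by AT5G23900. Its PL signal was 2383 and 2624 in WT and 3909 and 5722 in eif3h, and its NP signal 6846 and 7358 in WT and 3785 and 4234 in eif3h. The genotypes did not overlap in either fraction, and PL and NP moved in opposite directions. The change was 1.75 (SE 0.28, 3.35-fold, adjusted p = 0.0831, and 0.00745 with the gradient as a block). In PL it rose by 0.92 (SE 0.20, adjusted p = 0.0184) and in NP it fell by 0.83 (SE 0.20, adjusted p = 0.0229), and it was the only member called in opposite directions in the 2 fractions.

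L19 reaches from the tunnel exit towards the small subunit. Its gene AT4G02230 had PL signals of 2190 and 2229 in WT and 3216 and 3223 in eif3h, and NP signals of 5484 and 4925 in WT and 2822 and 2219 in eif3h. Replicates were close and the genotypes separate in both fractions, and the test called the difference in NP but not that in PL (0.54, adjusted p = 0.09). The change was 1.60 (SE 0.27, adjusted p = 0.0835, and 0.0122 with the gradient as a block). L7 binds 25S rRNA in the body, and AT3G13580 had PL signals of 1397 and 832 in WT and 1779 and 1277 in eif3h. Its NP signals were 4692 and 2701 in WT and 2354 and 1189 in eif3h. The PL signals overlapped between genotypes and the NP signals did not. The change was 1.57 (SE 0.28, adjusted p = 0.0979, and 0.0158 with the gradient as a block).

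L26 lies near the tunnel exit. Its gene AT3G49910 had PL signals of 13371 and 16434 in WT and 7824 and 17333 in eif3h, and NP signals of 17256 and 17252 in WT and 4532 and 5696 in eif3h. Its PL signal in eif3h replicate 1 was the lowest and that in replicate 2 the highest of the 4, so that the PL groups overlapped, whereas the NP signals of eif3h were below both WT values. The change was 1.42 (SE 0.38, adjusted p = 0.202, and 0.0436 with the gradient as a block), with 1.16 and 1.68 in the replicates. The PL difference of AT3G49910 was -0.35, and it was 0.15 without eif3h replicate 1 and -0.85 without eif3h replicate 2, the latter past the test (adjusted p = 0.00109). L22, an RNA-binding protein at the surface of the body, is encoded by AT5G27770, with PL signals of 4011 and 2466 in WT and 5756 and 5087 in eif3h. Its NP signals were 4816 and 2278 in WT and 2737 and 1724 in eif3h. Here the PL signals were separate and the NP signals overlapped. The change was 1.39 (SE 0.33, adjusted p = 0.167, and 0.0303 with the gradient as a block).

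Among 22 members that encode rRNA-binding proteins of the subunit body, all changes were positive, from 0.18 to 2.25 with a median of 0.58. Besides those above, L13a (AT3G24830) had a change of 1.30 (SE 0.31), L14 (AT4G27090) of 1.11 (SE 0.32) and L15 (AT4G16720) of 1.03 (SE 0.31), with adjusted p from 0.168 to 0.219. The signals of AT4G27090 were 16089 and 10433 in WT PL, 20878 and 21452 in eif3h PL, 30702 and 18181 in WT NP, and 21624 and 14784 in eif3h NP, so that its PL groups were separate and its NP groups overlapped. For L13a the replicates lay apart, at 0.81 and 1.79. The lowest values of this class were 0.18 (SE 0.29) for L7 gene AT1G80750 and 0.26 (SE 0.28) for AT2G19730, which encodes L28, a protein that budding yeast lacks. AT2G19730 lies next to AT2G19740 (L31) in the genome, the only neighbouring pair among the members, and the change of AT2G19740 was 0.99 (SE 0.27). L6 (AT1G18540) and L35a (AT1G74270) had changes of 0.64 (SE 0.27) and 0.42 (SE 0.30).

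The 8 members around the peptide exit tunnel had a median change of 0.86, from 0.51 to 1.60. L19 and L26 are given above, and L35, a protein at the tunnel exit where targeting factors dock, was encoded by AT3G55170. Its signals were 344 and 99 in WT PL, 1066 and 750 in eif3h PL, 389 and 195 in WT NP, and 712 and 550 in eif3h NP. All eif3h signals exceeded all WT signals, and its WT PL replicates lay further apart in ratio than those of the other members. Both its signals in WT replicate 2 lay below the medians of those arrays, 211.1 in PL and 234.35 in NP. Its change was 1.10 (SE 0.47, adjusted p = 0.331), the largest standard error among the members. The L17 genes AT1G67430 and AT1G27400, whose protein lines the tunnel, had changes of 0.64 (SE 0.27) and 0.57 (SE 0.28).

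For the stalks and their base 7 members were measured, with a median change of 0.74. L10a is the protein of the L1 stalk, which moves with the outgoing tRNA. Its 3 genes had changes of 1.08 (AT5G22440, SE 0.29), 0.86 (AT1G08360, SE 0.27) and 0.52 (AT2G27530, SE 0.27), and AT2G27530 is PGY1, known for its part in leaf polarity. The PL signals of PGY1 were 7125 and 5847 in WT and 11858 and 11490 in eif3h, and its NP signals were 5948 and 6629 in WT and 8469 and 7447 in eif3h. Both fractions of PGY1 were higher in eif3h with no overlap. The difference was 0.85 in PL (SE 0.19, adjusted p = 0.0224) and 0.34 in NP (SE 0.19, adjusted p = 0.246), the latter not past the test. L12 binds at the stalk base where elongation factors act, and its gene AT3G53430 was the member with a negative change, -0.16 (SE 0.30, adjusted p = 0.839). The signals of AT3G53430 were 12446 and 8991 in WT PL, 17887 and 15345 in eif3h PL, 8606 and 4508 in WT NP, and 12842 and 9252 in eif3h NP. Thus both fractions were higher in eif3h without overlap, by 0.65 (adjusted p = 0.0763) in PL and by 0.81 (adjusted p = 0.0334) in NP. L12 gene AT5G60670 had a change of 0.38 (SE 0.31).

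L4, whose extension lines the tunnel next to the peptidyl transferase centre, was the sole family measured of that site. Its genes AT5G02870 and AT3G09630 were among the 5 members with the lowest changes, 0.32 (SE 0.37) and 0.36 (SE 0.29), and the 2 replicates spread from -0.01 to 0.65 for AT5G02870 and from 0.00 to 0.71 for AT3G09630. Both mRNAs were on the polysomal side in either genotype. The 6 members outside the rule for naming (of L9, L12, L13a, L18, L26 and L27) had changes between 0.42 and 0.75.

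The translation state of each genotype was compared next. In WT the members were spread widely around 0, from -1.96 to 1.14 with a median of -0.20, and 17 were on the polysomal side (50.3% of all tested probe sets) and 22 on the non-polysomal side. By the test 8 members were more polysomal (15% of all and 28.5% of the brightest 10%) and 10 more non-polysomal (15.1% and 19.9%). Without WT replicate 2 these counts were 2 (6.84% of all) and 4 (6.99%). The highest were AT5G02870 (L4) at 1.14 (SE 0.26), AT1G18540 (L6) at 0.96 (SE 0.19), AT4G15000 (L27) at 0.92 (SE 0.24) and AT3G16780 (L19) at 0.86 (SE 0.27). The lowest were AT3G14600 (L18a) at -1.96 (SE 0.19), AT3G13580 (L7) at -1.72 (SE 0.20), AT5G23900 (L13) at -1.50 (SE 0.20) and AT3G24830 (L13a) at -1.35 (SE 0.22). All 8 passed the test, with adjusted p between 0.000405 and 0.0393.

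In eif3h the range was narrower, from -0.42 to 1.60 with a median of 0.44, and 35 members were on the polysomal side (42.9% of all). Of the 33 bright members 30 were on that side, with a median of 0.36, against 69.7% and a median of 0.51 for the brightest 10% as a whole. After quantile normalization 23 members were above 0 and 16 below (52.6% of all above 0), with a median of 0.17 against 0.05 over all. In that scaling 18 of the 33 bright members were above 0, against 57.8% of the brightest 10%. In the deposited scaling 16 members were more polysomal by the test (16.9% of all, 46.4% of the brightest 10%). None was more non-polysomal (22.2% of all, 15.4% of the brightest 10%). The highest were AT1G18540 (L6) at 1.60 (SE 0.19), AT5G02870 (L4) at 1.45 (SE 0.26), AT4G16720 (L15) at 1.45 (SE 0.22) and AT4G15000 (L27) at 1.43 (SE 0.24). The lowest were AT1G67430 (L17) at -0.42 (SE 0.19), AT3G13580 (L7) at -0.15 (SE 0.20), AT5G60670 (L12) at -0.08 (SE 0.22) and AT3G24830 (L13a) at -0.05 (SE 0.22), none of them past the test. After median centring of the arrays, which moves the median translation state of all probe sets in eif3h from -0.16 to 0.36, these 4 values were above 0 and 34 members passed as polysomal, as did 34.2% of all and 65.1% of the brightest 10%.

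Of the 8 members called polysomal in WT, 7 were also called so in eif3h, where they made up 7 of 16. Over all probe sets 68.9% of those called polysomal in WT were called so in eif3h (95.1% in the brightest 10%), which was 61.2% of those called in eif3h. The other 9 of those 16 had not been called in either direction in WT (38.4% over all). None of the 10 members called non-polysomal in WT was called in either direction in eif3h, while over all probe sets 28.7% of those called non-polysomal in WT had no call in eif3h, and 43.2% in the brightest 10%. In 12 members the translation state was below 0 in both WT gradients and above 0 in both eif3h gradients (3.22% of all). The standard deviation among the 39 members was 0.77 and 0.86 in the WT gradients and 0.56 and 0.57 in the eif3h gradients. Over all tested probe sets it was 0.79 and 0.84 in WT and 0.93 in each eif3h gradient, so that the members lay closer together in eif3h while probe sets in general lay further apart. The same order held after quantile normalization, with 0.75 and 0.87 against 0.54 and 0.62 for the members and 0.76 and 0.85 against 0.90 and 0.93 for all, and no test of this difference in spread was made. For the means of 2 gradients, the standard deviation among 40 small-subunit genes was 0.82 in WT and 0.55 in eif3h. Among 6 nuclear genes of plastid ribosomal proteins it was 0.82 and 0.56. Among 11 stalk P-protein genes it was 0.86 and 0.99, so that these lay further apart in eif3h.

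**Figure D2:**
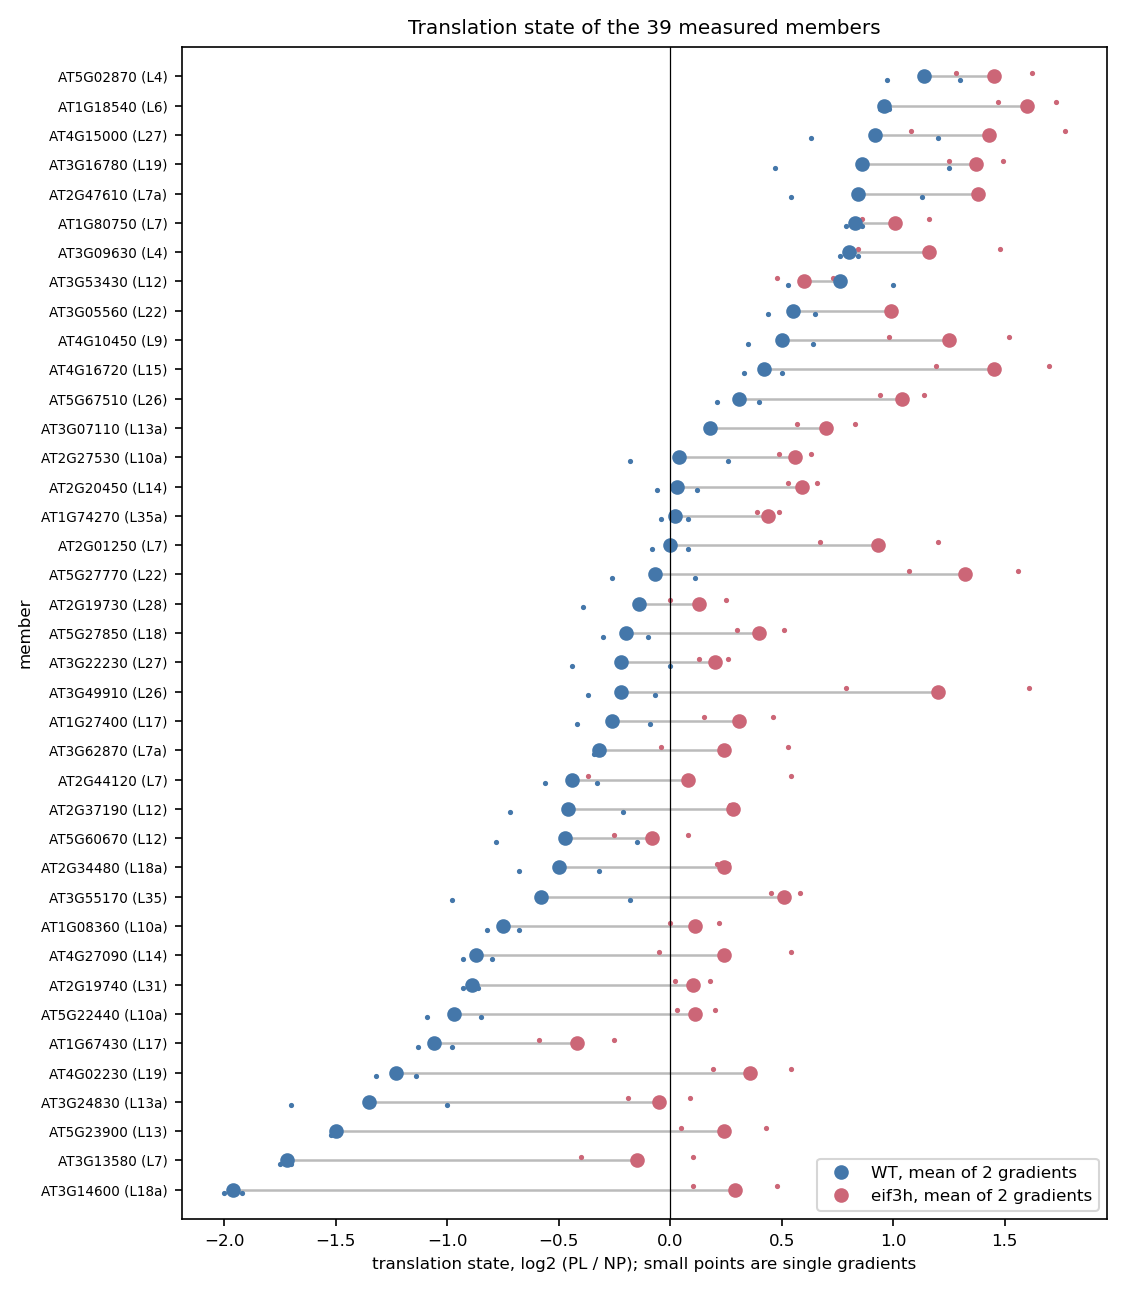
Translation state, log2 (PL / NP), of the 39 measured mRNAs, sorted by the value in WT; large points are means of 2 gradients in WT (blue) and eif3h (red), small points single gradients, and the vertical line marks equal PL and NP signal. The WT means run from -1.96 to 1.14 and the eif3h means from -0.42 to 1.60, and the eif3h mean lies to the right of the WT mean in 38 of 39.

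The genotypes were then compared within each fraction. In PL RNA 38 of 39 members were higher in eif3h (46% of all tested probe sets), with a median difference of 0.78 against -0.06 over all and 0.09 over the brightest 10%. The test called 22 members higher (5.92% of all, and 16.8% of the brightest 10%, where 17 of 33 members were called) and none lower (7.61% of all). Both eif3h signals were above both WT signals in 37 members, against 24.4% of all and 37.7% of the brightest 10%. Quantile normalization left the median at 0.68 (0.01 over all) and 38 members above 0 (5756 of all 11373). In that scaling 16 members passed as higher, against 481 of all 11373 and 133 of the brightest 1138. The PL calls depended on the gradients used: without WT replicate 2 the test called 6 members (4.23% of all), and without eif3h replicate 1 it called 37 (9.36% of all, and 30.1% of the brightest 10%).

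The largest differences in PL were those of AT3G55170 (L35) at 2.28 (SE 0.33, adjusted p = 0.00441), AT2G20450 (L14) at 1.38 (SE 0.26, adjusted p = 0.0113), AT1G74270 (L35a) at 1.33 (SE 0.21, adjusted p = 0.00634) and AT2G19740 (L31) at 1.32 (SE 0.19, adjusted p = 0.0043). AT2G20450 had PL signals of 1601 and 1006 in WT and 3348 and 3265 in eif3h. AT1G74270 had 1859 and 2395 in WT and 5512 and 5102 in eif3h, and AT2G19740 had 1425 and 1213 in WT and 3291 and 3263 in eif3h. In each of these the eif3h replicates were close to each other and above both WT values. AT3G55170 had a WT PL signal of 98.6 in replicate 2, below the array median of 211.1. The smallest differences in PL were -0.35 (SE 0.27) for AT3G49910 (L26), 0.46 (SE 0.19) for AT1G18540 (L6), 0.47 (SE 0.22) for AT5G60670 (L12) and 0.48 (SE 0.20) for AT3G13580 (L7), and none of them passed the test.

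In NP RNA the members were divided. The difference was positive in 23 and negative in 16 (56.8% of all tested probe sets above 0), with a median of 0.11 against 0.10 over all. The brightest 10% had a median of -0.15 with 41.9% above 0, and the 33 members among them a median of 0.09 with 18 above 0. The test called 6 higher (8.45% of all, 9.14% of the brightest 10%) and 5 lower (8.65% and 20.6%). Among the 33 bright members it called 5 higher and 4 lower. Without WT replicate 2 it called 1 member higher (5.72% of all) and 6 lower (7.31%). Both eif3h signals were above both WT signals in 13 members (29.2%) and below both in 6 (21.8%). The 5 that fell were AT3G14600 (L18a) by 1.76 (SE 0.19, adjusted p = 0.00111), AT3G49910 (L26) by 1.76 (SE 0.27, adjusted p = 0.00421), AT3G13580 (L7) by 1.09 (SE 0.20, adjusted p = 0.00828), AT4G02230 (L19) by 1.05 (SE 0.19, adjusted p = 0.00812) and AT5G23900 (L13) by 0.83 (adjusted p = 0.0229). These are also the 5 members with the largest change of translation state, a measure that contains the NP difference. The 4 highest in NP were AT3G55170 (L35) at 1.18 (SE 0.33, adjusted p = 0.0412), AT1G74270 (L35a) at 0.91 (SE 0.21, adjusted p = 0.0212), AT2G19730 (L28) at 0.88 (SE 0.20, adjusted p = 0.0208) and AT2G20450 (L14) at 0.82 (SE 0.26, adjusted p = 0.058).

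Taken by direction, 23 members were higher in eif3h in both fractions (35.1% of all), 15 were higher in PL and lower in NP (11% of all), and AT3G49910 was lower in both. Of the 6 members called higher in NP, 5 were also called higher in PL, where 22 of all 39 were called. The like share over all probe sets was not computed, so no reading of this overlap is given. After median centring, which moves the median NP difference of all probe sets from 0.10 to -0.15, the NP difference was positive in 16 members and negative in 23 (61.4% of all negative), and the test called none higher (3.62% of all) and 6 lower (15.1%). The direction of the members in NP therefore turned with the scaling for some of them, whereas in PL 38 were above 0 in each of the 3 scalings.

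**Figure D3:**
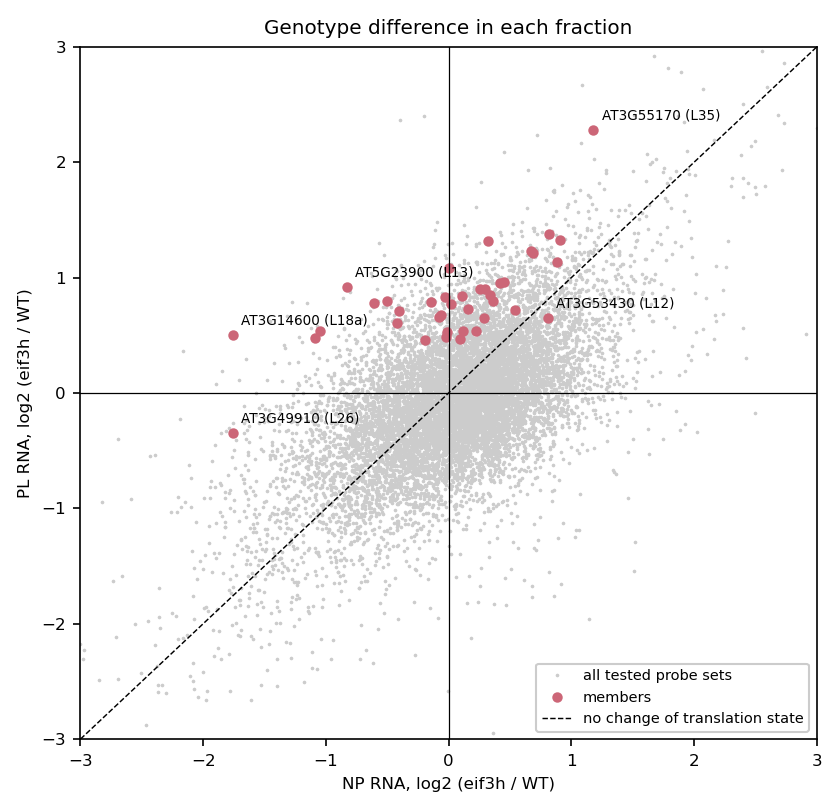
Difference between eif3h and WT (log2) in polysomal RNA (vertical axis) against that in non-polysomal RNA (horizontal axis) for the 39 members (red) and all 11373 tested probe sets (grey), of which 66 lie beyond the axes. Points above the dashed line have a higher translation state in eif3h; 38 members are above 0 in PL, while in NP 23 are above and 16 below 0.

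Paralogs of the same protein could be compared in 13 families. The signals of different probe sets were not set against each other, since probes differ in brightness, and the changes were. The gap in change between the highest and the lowest paralog was over 1 in 3 families. In L18a it was 1.52, the same in both replicates: AT3G14600 had 2.25 and AT2G34480 had 0.73 (SE 0.28). In WT AT2G34480 had a translation state of -0.50 against -1.96 for AT3G14600, and in eif3h they had 0.24 and 0.29. The signals of AT2G34480 were 13341 and 8820 in WT PL, 18509 and 15838 in eif3h PL, 16656 and 14111 in WT NP, and 15426 and 13707 in eif3h NP. Its NP signals overlapped between genotypes, in contrast to those of its paralog.

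The 4 measured L7 genes had a gap of 1.39 (0.97 and 1.81 in the replicates), with changes of 1.57 for AT3G13580, 0.93 (SE 0.29) for AT2G01250, 0.53 (SE 0.34) for AT2G44120 and 0.18 for AT1G80750. Their translation states in WT ran from -1.72 for AT3G13580 to 0.83 for AT1G80750, and in eif3h from -0.15 to 1.01 for the same genes. In L19 the gap was 1.09 (0.73 and 1.45), between 1.60 for AT4G02230 and 0.51 (SE 0.38) for AT3G16780, which was polysomal in WT at 0.86. In L22 it was 0.95 (0.79 and 1.11), between 1.39 for AT5G27770 and 0.44 (SE 0.28) for AT3G05560. The narrowest gaps were 0.02 in L7a (AT3G62870 and AT2G47610), 0.04 in L4 and 0.07 in L17. The L7a genes, with changes of 0.57 (SE 0.29) and 0.54 (SE 0.29), kept their distance in translation state, from -0.32 and 0.84 in WT to 0.24 and 1.38 in eif3h.

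The highest and lowest paralog were picked on the mean of the same replicates, so the sign of a gap in each replicate is no check of it. The translation states of paralogs covered a wider range in WT than in eif3h in 12 of the 13, the exception being L27. The gaps between paralogs were not tested, and 10 of the families had 2 measured genes each. Cross-hybridization between paralogs was not tested, although all 39 probe sets carry the name form that the array design gives to probes of a single transcript.

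**Figure D4:**
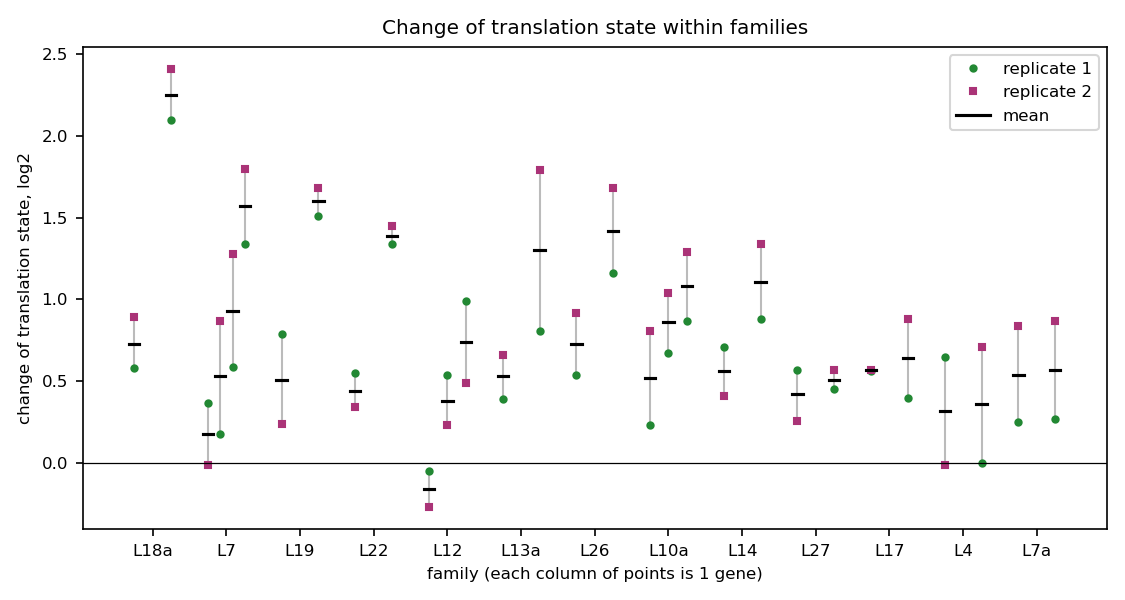
Change of translation state (log2, eif3h minus WT) of each measured gene in the 13 families with more than 1, as replicate 1 (circles), replicate 2 (squares) and their mean (bars), families sorted by the gap between their highest and lowest gene. L18a at the left has a gap of 1.52 and L7a at the right one of 0.02, and L12 holds the single mean below 0.

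Other ribosomal proteins measured on the same arrays gave changes of like size. Among 40 small-subunit genes 36 were above 0, with a median of 0.70 and 10 over 2-fold. Of 11 stalk P-protein genes 8 were above 0, with a median of 0.53. The 6 measured nuclear genes of plastid ribosomal proteins were all above 0 with a median of 0.75, but with fraction values unlike those of the members: their median difference was 0.15 in PL and -0.72 in NP, against 0.78 and 0.11 in the large-subunit genes. In the small-subunit genes the medians were 0.93 in PL and 0.22 in NP. No test between these lists was made.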

How the data were processed

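RNA of 8 samples was measured on Affymetrix ATH1 arrays. The authors corrected the background and scaled each array with MAS 5.0 (version not given in the sources used here), and deposited signal intensities that are linear, 1 for each probe set. With 2% of values trimmed at each end, array means ran from 500.037 to 500.058. Such scaling removes any difference in total mRNA between fractions or genotypes. The deposited experiment records were read for scan day, scanner and order only.

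Signals were taken as log2 with no offset, and 64 control probe sets were left out. The 50% of the other 22746 probe sets with the highest mean were fitted in R 4.3.3 with limma 3.58.1 (lmFit, and eBayes with a trend), in a model of 4 groups blocked by replicate number. Tests were two-sided, with Benjamini-Hochberg adjustment over 11373 probe sets and a threshold of 0.05. In simulated data the fit was checked for the change of translation state only. That check does not bear on the p-values of the other comparisons. With 2 gradients per genotype the number of arrays limits the precision. Replicate numbers pair the samples: each stands for its own day of preparation, day of scanning and scanner. Over the tested probe sets, replicate deviations of PL and NP from the same gradients correlated with r of 0.68 in WT and 0.52 in eif3h. Between genotypes r was 0.33 to 0.4. The replicate block does not take up what PL and NP of 1 gradient share. For genotype differences within a fraction its p-values can therefore be too small.

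Probe sets were named through the platform annotation and RefSeq (TAIR10.1, names only). Sequences and coordinates were not used here. Protein families and sites were assigned by locus. The comparison lists could not be checked against gene descriptions and were kept as listed. Members and lists were chosen with earlier results of these data known. Named were the members called for the change and those next by unadjusted p, up to 12, the 5 with the lowest change, the 4 highest and 4 lowest in each other comparison, 2 per site, the 4 families with the widest and 3 with the narrowest gap, and members with a known role. Alternatives were the filter, the scaling, an offset of 16, the block and leaving out each gradient.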

Additional observations from a re-analysis of the deposited data

Results flagged for a closer look

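The change of translation state of AT3G14600 (L18a) is a difference between 2 genotypes in the same contrast of PL with NP, and it passed the test of that difference itself: 2.25 on the log2 scale (limma adjusted p = 0.0464). Its translation state stood at -1.96 in WT against 0.29 in eif3h, and the change was 2.10 and 2.41 in the replicates. No other member passed this test with the replicate number as a block.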

How the results depend on the processing

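With 2 gradients per genotype, and 1 residual degree of freedom when a gradient is left out, the counts of calls above and below are uncertain. Of 696 recomputed values for the 33 named genes, 613 kept their direction and their side of the threshold, 29 lost the call, 42 gained it and 12 turned sign. The cause of these shifts was not tested. Each member had a single probe set, so a mean over probe sets could not be run as an alternative.

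For the change, the count of members called higher was 1, and it was 0 with no filter, after quantile normalization and with no replicate block, 4 after median centring, 8 with the gradient as a block and 0 to 17 when a gradient was left out (0 without WT replicate 1 or 2, 17 and 9 without eif3h replicate 1 and 2). The members' median above that of all probe sets was 0.76, and 0.40 after quantile normalization.

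For WT, 8 members were called polysomal, 2 with no replicate block and 2 to 11 without a gradient, and 10 were called non-polysomal, 4 without WT replicate 2 and up to 14 without either eif3h gradient. Over all 11373 tested probe sets 1709 were called polysomal in WT, and 838 with no replicate block, so that fewer calls were made in general. Both counts over all probe sets also fell without either WT gradient and rose without either eif3h gradient. The relative median of the members was -0.20, with -0.07 with no filter, -0.26 with 25% of probe sets, -0.27 after quantile normalization and -0.11 to -0.20 without a gradient. For eif3h, 16 members were called polysomal (1925 of all) and 34 after median centring (3895 of all). None was called non-polysomal (2529 of all), and 1 was after quantile normalization (1749 of all). The relative median was 0.59, with 0.86 with no filter, 0.31 with 25% of probe sets, 0.12 after quantile normalization and up to 0.70 without a gradient.

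In PL 22 members were called higher, 10 with no filter, 4 with no replicate block and 6 to 37 without a gradient, while 1 was called lower without eif3h replicate 2 and none otherwise. Over all tested probe sets 673 of 11373 were called higher in PL, 482 of 22746 with no filter and 111 of 11373 with no replicate block. Fewer calls were thus made in general in these 2 settings. That count over all probe sets also fell without either WT gradient and rose without either eif3h gradient. In NP 6 members were called higher (961 of all 11373) and 1 with no filter (736 of 22746). The count was 0 after median centring (412 of 11373) and with no replicate block (174 of 11373). The count called lower was 5 (984 of all), and 3 with no replicate block (320 of all). The relative NP median of 0.01 was -0.08 with no filter, 0.11 with 25% of probe sets, 0.28 after quantile normalization and -0.06 to 0.14 without a gradient.

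Signs turned in 12 values, none past the test with the sign turned. After median centring the translation state in eif3h became 0.09 for AT1G67430, 0.36 for AT3G13580, 0.46 for AT3G24830 and 0.43 for AT5G60670, and without 1 gradient it ranged from -0.40 to 0.10, from -0.19 to 0.09 and from -0.25 to 0.08 for the last 3, highest without eif3h replicate 1. The change became -0.04 for AT3G09630 and -0.08 for AT5G02870 after quantile normalization, and for AT3G53430 it became 0.20 after median centring and ranged from -0.39 to 0.07 without 1 gradient. The PL difference of AT3G49910 ranged from -0.85 to 0.15 without 1 gradient.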
